A study of Mus musculus with 8 samples.

Results

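Hepatic stellate cells (HSCs) lie between the hepatocytes and the sinusoids. In healthy liver they store vitamin A as retinyl esters, and after injury they can become myofibroblasts that deposit collagen. A set of 10 transcripts of these cells and of the matrix was followed in mouse liver: *Lrat*, *Reln*, *Hgf*, *Colec11*, *Rgs5*, *Des*, *Dcn*, *Col1a1*, *Col1a2* and *Col3a1*. They were chosen by name as markers of HSCs and of fibrillar matrix, with earlier results of these data known, and all 10 of 10 were found among the 23282 rows of the count files, each on 1 row. *Lrat* marks vitamin A storage, *Reln*, *Hgf* and *Colec11* encode secreted proteins, *Rgs5* and *Des* mark pericytes and contractile cells, and the remaining 4 genes encode matrix proteins. None of them is exclusive to HSCs, as portal fibroblasts and vascular smooth muscle cells also express several of them.

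The livers came from C57BL/6 mice, described as males of 4 weeks, which received saline (control group), 25 mg/kg lipopolysaccharide (LPS, endotoxemic group) or, in the LGK974 group, 60 mg/kg LGK974, an inhibitor of the enzyme that makes Wnt proteins fit for secretion, with 25 mg/kg LPS. The labels of the LGK974 group name only the agent LGK974, and its doses, the use of LPS, the collection of liver 6 h after LPS and the injection of LGK974 2 h before LPS in most experiments come from the study's methods. The labels use the word control for the LPS mice and normal for the saline mice, whereas control denotes saline here. RNA was sequenced from the 3′ ends of transcripts, so that levels are compared between groups and not between genes.

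Of 8 libraries, endotoxemic libraries 3 and 4 had the counts of libraries 1 and 2 on every row and were counted once, so that each group held 2 distinct libraries. Totals ranged from 9142116 to 15222439 counts, and *Alb*, the albumin gene that marks hepatocytes, had between 210581 and 914224 counts. Levels are given as counts scaled by the library total and edgeR's TMM factors (TMM CPM), on which 3 counts, taken as the smallest signal a library can show, equalled 0.196 to 0.327. The labels do not say that each library is a separate mouse, so that p-values measure the spread between these libraries. *Xist*, expressed from the inactive X chromosome of females, had between 1171 and 3115 counts in the control and endotoxemic libraries and 3 and 7 counts in the LGK974 libraries. *Ddx3y*, a Y-linked gene, had 0 counts in the control and endotoxemic libraries and 1755 and 1392 counts in the LGK974 libraries. These values go against the label of male mice for 2 of the 3 groups, and LGK974 and sex cannot be told apart in any comparison of the LGK974 group. On 579 of 23134 rows with a known position the symbol did not belong between its neighbours on the genome, but the rows of all 10 genes stood in genomic order, for example *Dcn* beside *Lum* and *Col3a1* beside *Col5a2*.

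Endotoxemic livers were compared with control livers to show which of these transcripts changed after LPS. *Lrat*, *Colec11*, *Col1a1*, *Col1a2* and *Reln* fell by between 2.02-fold and 7.65-fold, and *Dcn* rose 1.51-fold. Thus, 5 of the 10 genes were lower and 1 was higher at an edgeR adjusted p below 0.05, whereas 23.0% of the 12701 genes tested were lower and 20.4% were higher. *Rgs5*, *Des*, *Hgf* and *Col3a1* did not pass this threshold. The median log2 fold change was −1.43 over the 10 genes and 0.01 over all genes tested, and 8 of the 10 genes had an unadjusted p below 0.05 in edgeR, as had 51.3% of all genes. The control and endotoxemic libraries did not overlap for any of the 10 genes, nor did they for 77.1% of all genes. In bulk liver RNA, fewer cells of a type and less RNA per cell cannot be told apart.

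**Figure D1:**
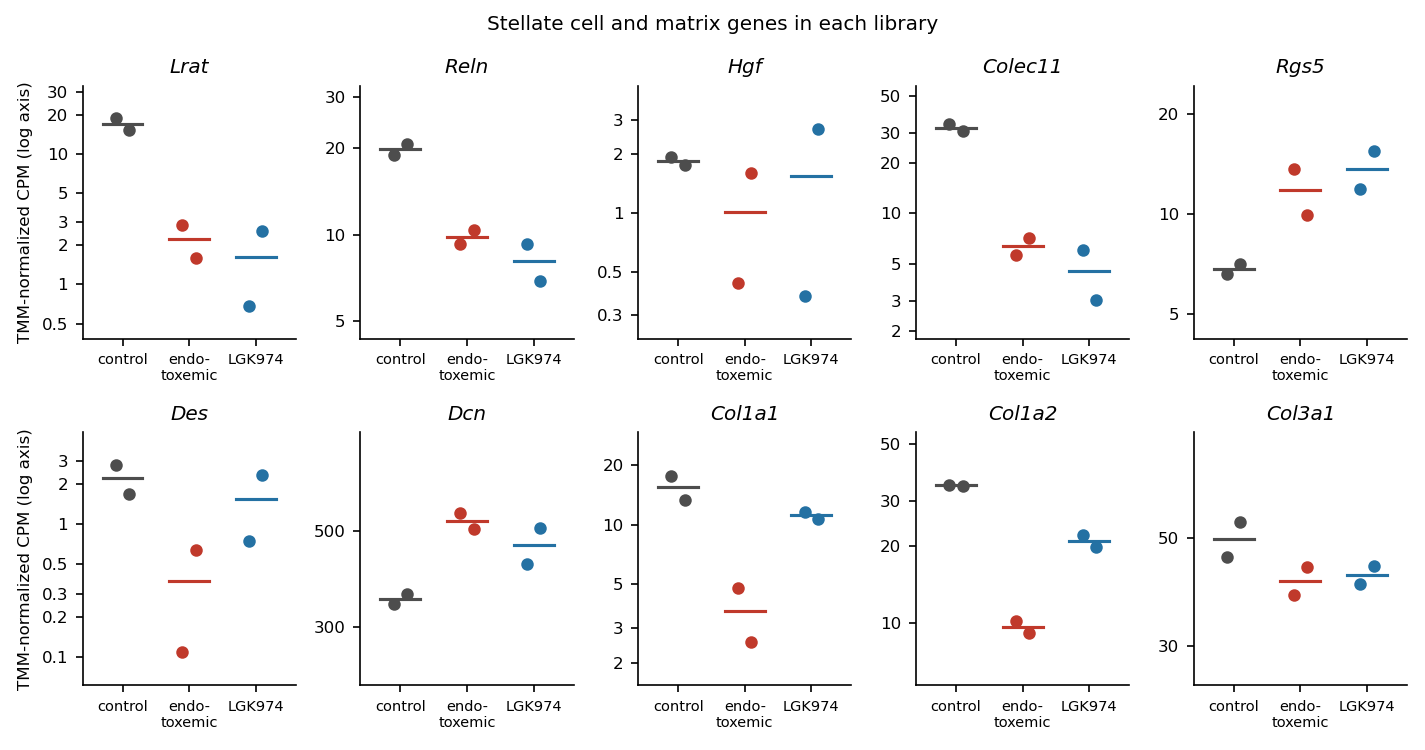
TMM CPM of the 10 genes in each of the 6 distinct libraries on a log axis, with 1 panel per gene and its own scale. Points are libraries and bars are group means (n = 2). *Dcn* and *Rgs5* sit higher in both endotoxemic libraries than in both control libraries, and the other genes sit lower, *Hgf* and *Col3a1* by little. Both type I collagen genes lie between the other groups in the LGK974 libraries.

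*Lrat* (chr3:82892579-82903973, minus strand, GRCm38) encodes lecithin retinol acyltransferase, the enzyme that esterifies retinol for storage. Its level was 18.7 and 15.3 TMM CPM in control, 2.84 and 1.60 in endotoxemic and 0.679 and 2.57 in LGK974 livers. Each of the 4 libraries from LPS-treated mice was lower than either control library, and the endotoxemic and LGK974 libraries overlapped. *Lrat* fell 7.65-fold in the endotoxemic group (log2 fold change −2.93, 95% interval −4.16 to −1.71, edgeR adjusted p = 0.0023). In the LGK974 group it was 10.3-fold lower than in the control group (log2 fold change −3.36, edgeR adjusted p = 0.00148), with a log2 fold change of −4.62 without LGK974 library 2 and −2.71 without LGK974 library 1. Between the LGK974 and endotoxemic groups the log2 difference was −0.43, with an interval of −1.74 to 0.89 (edgeR adjusted p = 0.705). The raw counts were 26 and 15 in endotoxemic and 9 and 38 in LGK974 livers, so that the later comparison rests on few reads. The 3′ end of *Lrat* overlaps an antisense gene, *Rbm46os*, and reads of the pair cannot be told apart if strand was not counted.

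*Colec11* (chr12:28594173-28623377, minus strand) encodes collectin-11, a secreted lectin that binds microbial sugars and starts the lectin pathway of complement. It had 33.7 and 30.7 TMM CPM in control, 5.67 and 7.14 in endotoxemic and 6.04 and 3.05 in LGK974 livers. The lowest control library was above every library of the other groups. The fall was 5.02-fold in the endotoxemic group (log2 fold change −2.33, 95% interval −3.10 to −1.55, edgeR adjusted p = 0.000658) and 7.10-fold in the LGK974 group (log2 fold change −2.83, edgeR adjusted p = 0.000304). The LGK974 and endotoxemic libraries overlapped, with a log2 difference of −0.50 (interval −1.30 to 0.29, edgeR adjusted p = 0.437). That difference passed the threshold only when LGK974 library 1 was left out (edgeR adjusted p = 0.0436).

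*Reln* (chr5:21884454-22344702, minus strand) encodes reelin, a large secreted glycoprotein best known from neuronal migration. Its level was 18.9 and 20.7 TMM CPM in control, 9.27 and 10.3 in endotoxemic and 9.28 and 6.90 in LGK974 livers. Control libraries were again separate from all others. *Reln* fell 2.02-fold in the endotoxemic group (log2 fold change −1.02, SE 0.27, edgeR adjusted p = 0.014) and 2.45-fold in the LGK974 group (log2 fold change −1.29, SE 0.27, edgeR adjusted p = 0.00557). The fall in the endotoxemic group was no longer past the threshold when any 1 of the 4 control and endotoxemic libraries was left out (edgeR adjusted p = 0.0548 to 0.119).

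The 120 bases before the start of *Lrat*, *Colec11* and *Reln* are shown because these genes were low together in both groups that received LPS. They are RefSeq sequences of GRCm38.p6 on the strand of the gene, at chr3:82903975-82904094, chr12:28623331-28623450 and chr5:22344706-22344825, respectively, counted from the RefSeq start, which for *Colec11* lies inside the GENCODE gene, and capitals mark matches to CCAAT or to the GC box GGGCGG on either strand.
*Lrat*: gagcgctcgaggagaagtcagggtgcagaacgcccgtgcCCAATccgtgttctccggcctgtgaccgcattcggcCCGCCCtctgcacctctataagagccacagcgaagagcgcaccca
*Colec11*: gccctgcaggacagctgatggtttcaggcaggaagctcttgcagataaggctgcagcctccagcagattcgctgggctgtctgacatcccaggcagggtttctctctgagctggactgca
*Reln*: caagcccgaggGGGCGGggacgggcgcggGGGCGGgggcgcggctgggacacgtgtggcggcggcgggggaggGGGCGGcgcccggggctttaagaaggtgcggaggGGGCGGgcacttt
In the 250 bases before the start, *Lrat* held 1 CCAAT and 1 GGGCGG, *Reln* held 6 GGGCGG, and *Colec11* held neither. These windows were searched on both strands for CCAAT, the GC box, the TATA box TATAAA, the CArG box and the kappa B motif, and matches of different motifs did not overlap in the genes studied. Over 32851 mouse promoters of the same length, 33.8% held CCAAT, 32.7% held GGGCGG, 12.4% held TATAAA, 1.47% held a CArG box and 7.25% held a kappa B motif. No motif searched was held by all 3 genes. A match is a description of the sequence and not evidence of binding.

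*Hgf* (chr5:16553495-16620152, plus strand) encodes hepatocyte growth factor, which acts on hepatocytes through the receptor MET. It had 1.95 and 1.76 TMM CPM in control, 0.436 and 1.60 in endotoxemic and 0.377 and 2.71 in LGK974 livers. Both treated groups held 1 library with 4 or 5 counts and 1 library with 15 or 40 counts. The log2 difference from control was −0.85 in the endotoxemic group (interval −2.96 to 1.25, edgeR adjusted p = 0.488) and −0.25 in the LGK974 group (edgeR adjusted p = 0.853). The spread between libraries of a group was thus wide relative to these differences.

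*Rgs5* (chr1:169655501-169695813, plus strand), a regulator of G protein signaling found in pericytes, had 6.59 and 7.06 TMM CPM in control, 13.6 and 9.91 in endotoxemic and 11.9 and 15.5 in LGK974 livers. All 4 treated libraries were above both control libraries. The log2 difference was 0.78 in the endotoxemic group (SE 0.30, edgeR adjusted p = 0.0585). This difference passed the threshold when the fit held only the 2 groups compared (edgeR adjusted p = 0.0281), with no filter on low counts and with the identical libraries as separate samples. It did not pass under every alternative, and it ranged from 0.60 to 1.00 over them. *Rgs5* rose 2.00-fold in the LGK974 group relative to the control group (edgeR adjusted p = 0.027), a call lost without control library 1 or 2 or LGK974 library 2 (edgeR adjusted p = 0.0618 to 0.141).

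*Des* (chr1:75360329-75368579, plus strand) encodes desmin, the intermediate filament of muscle cells and of rodent HSCs. It had 2.78 and 1.70 TMM CPM in control, 0.109 and 0.640 in endotoxemic and 0.755 and 2.37 in LGK974 livers. The endotoxemic libraries, with 1 and 6 counts, lay below the other 4. The log2 difference of −2.53 between the endotoxemic and control groups had an interval of −4.61 to −0.45 and an edgeR adjusted p of 0.0511, whereas DESeq2 gave an adjusted p of 0.0351 and edgeR without a filter on low counts gave 0.0142. When any 1 control or endotoxemic library was left out, this log2 difference ranged from −4.23 (without endotoxemic library 2) to −1.73 (without endotoxemic library 1), with edgeR adjusted p between 0.0648 and 0.27. With LGK974 the log2 difference from the endotoxemic group was 2.03 (interval −0.06 to 4.13, edgeR adjusted p = 0.23), and it ranged from 0.98 to 3.73 over the alternatives. The 3′ end of *Des* overlaps the antisense gene *Gm15179*.

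*Col1a1* (chr11:94936224-94953042, plus strand) and *Col1a2* (chr6:4504814-4541544, plus strand) encode the α1 and α2 chains that together form type I collagen, the main fibrillar collagen of scar tissue. *Col1a1* had 17.6 and 13.3 TMM CPM in control, 4.80 and 2.56 in endotoxemic and 11.6 and 10.6 in LGK974 livers. *Col1a2* had 34.7 and 34.5 TMM CPM in control, 10.1 and 9.17 in endotoxemic and 22.1 and 19.9 in LGK974 livers. For both genes the order was the same, with the endotoxemic libraries lowest, the LGK974 libraries in between and the control libraries highest, without overlap. The number of *Col1a1* reads per *Col1a2* read was 0.386 to 0.508 in the control group, 0.279 to 0.473 in the endotoxemic group and 0.526 to 0.534 in the LGK974 group.

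In the endotoxemic group, *Col1a1* fell 4.20-fold (log2 fold change −2.07, 95% interval −2.87 to −1.26, edgeR adjusted p = 0.00158) and *Col1a2* fell 3.58-fold (log2 fold change −1.84, 95% interval −2.34 to −1.34, edgeR adjusted p = 0.000204). These falls, like that of *Colec11*, passed the threshold under every alternative tried, and that of *Lrat* did so under every alternative in which it was tested. Relative to the endotoxemic group, *Col1a1* was 3.02-fold higher (log2 fold change 1.59, 95% interval 0.79 to 2.40, edgeR adjusted p = 0.0362) and *Col1a2* was 2.17-fold higher (log2 fold change 1.12, 95% interval 0.62 to 1.62, edgeR adjusted p = 0.0231) in the LGK974 group. Both of these calls were lost when only the LGK974 and endotoxemic groups were fitted (edgeR adjusted p = 0.0784 and 0.0748) and when any 1 control or endotoxemic library was left out (0.0726 to 0.249 and 0.072 to 0.209). Compared with the control group, *Col1a2* was 1.65-fold lower in the LGK974 group (edgeR adjusted p = 0.0272), a call lost when only these groups were fitted (edgeR adjusted p = 0.0539) or when any 1 control or endotoxemic library was left out (0.0516 to 0.14). The log2 difference of *Col1a1* from control was −0.47 (interval −1.21 to 0.26, edgeR adjusted p = 0.292).

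*Col3a1* (chr1:45311538-45349706, plus strand) encodes the chain of type III collagen, which forms fibrils with type I collagen. Its level was 45.8 and 53.7 TMM CPM in control, 38.2 and 43.6 in endotoxemic and 40.2 and 43.8 in LGK974 livers. The endotoxemic libraries lay just below the control libraries, with a log2 difference of −0.28 (interval −0.73 to 0.16, edgeR adjusted p = 0.275). The intervals of *Col1a1* and *Col1a2* in the same comparison lay wholly below that of *Col3a1*, although the difference between the genes was not tested. Relative to the endotoxemic group, the log2 difference of *Col3a1* with LGK974 was 0.04 (interval −0.41 to 0.49, edgeR adjusted p = 0.937).

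The 120 bases before the start of *Col1a2* (GRCm38.p6 chr6:4505498-4505617) and *Col3a1* (chr1:45311418-45311537), both on the plus strand, are shown because one of these fibrillar collagens passed the test after LPS and the other did not. The RefSeq start used for *Col1a2* lies inside the GENCODE gene given above, downstream of its first base. Capitals mark CCAAT in *Col1a2* and TATAAA in *Col3a1*.
*Col1a2*: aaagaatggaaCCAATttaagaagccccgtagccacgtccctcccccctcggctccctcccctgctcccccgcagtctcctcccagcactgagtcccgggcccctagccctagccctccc
*Col3a1*: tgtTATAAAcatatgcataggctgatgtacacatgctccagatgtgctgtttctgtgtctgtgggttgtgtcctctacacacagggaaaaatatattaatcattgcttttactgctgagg
CCAAT lay 109 to 105 bases before the start of *Col1a2*, which also held 2 GGGCGG further upstream, and TATAAA lay 117 to 112 bases before the start of *Col3a1*. The GC content of the 250 bases was 62.0% for *Col1a2* and 35.2% for *Col3a1*. No promoter was found for *Col1a1*, and a link between these sequences and the change after LPS was not tested.

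*Dcn* (chr10:97479609-97518143, plus strand) encodes decorin, a small proteoglycan that coats collagen fibrils and binds TGF-β. It had 339 and 358 TMM CPM in control, 549 and 505 in endotoxemic and 419 and 509 in LGK974 livers. All 4 treated libraries were above the control libraries, and the treated groups overlapped. *Dcn* rose 1.51-fold in the endotoxemic group (log2 fold change 0.60, 95% interval 0.17 to 1.03, edgeR adjusted p = 0.0314), and this call was lost without any 1 of the 4 control and endotoxemic libraries (edgeR adjusted p = 0.101 to 0.191). In the LGK974 group the log2 difference from control was 0.41 (edgeR adjusted p = 0.125). *Dcn* took 65.2% and 66.7% of the reads on the 10 genes in control, 86.6% and 85.4% in endotoxemic and 80.3% and 82.6% in LGK974 livers. The other 9 genes summed to 181 and 179 TMM CPM in control, 85.1 and 86.6 in endotoxemic and 103 and 107 in LGK974 livers. A sum over the 10 genes is therefore mostly a measure of *Dcn*.

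**Figure D2:**
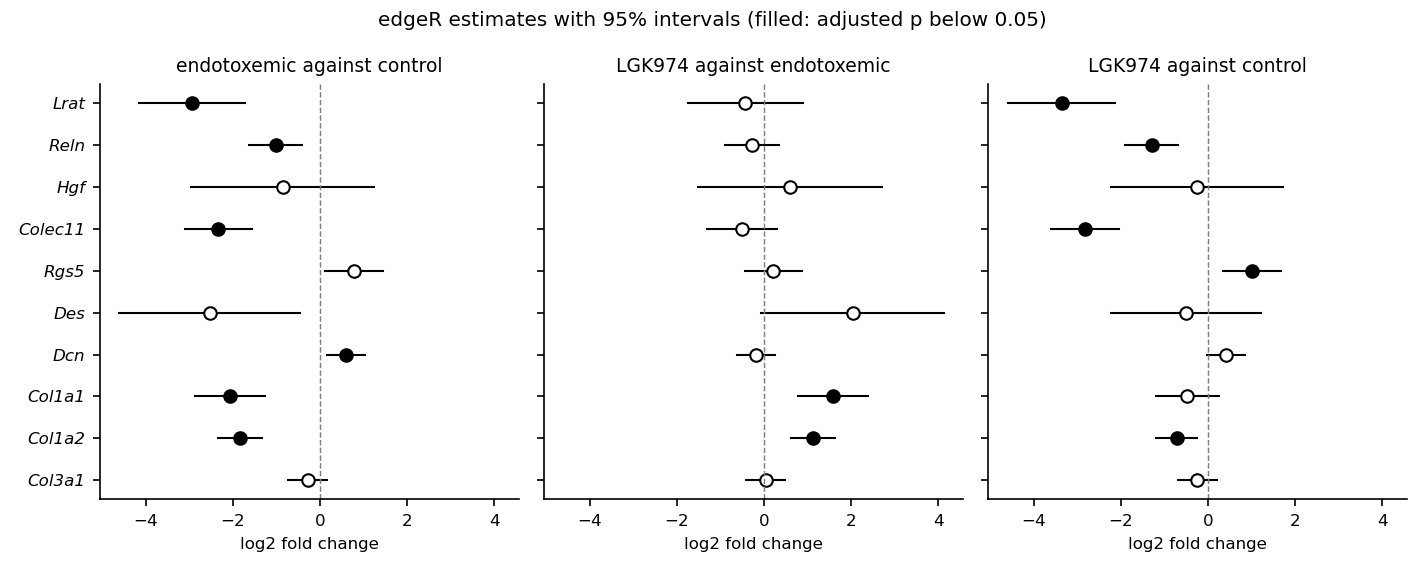
Log2 fold changes of the 10 genes in the 3 comparisons, with 95% intervals from the edgeR fit, filled where the adjusted p was below 0.05. *Lrat* and *Colec11* lie far to the left in both comparisons with the control group, while *Col1a1* and *Col1a2* are the filled points to the right in the comparison of LGK974 with endotoxemic livers.

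LGK974 livers were compared with endotoxemic livers to show which of these transcripts differed between the 2 groups that received LPS. By *Xist* and *Ddx3y* these groups also differed in sex, so that the Wnt inhibitor and sex cannot be told apart here. Of the 10 genes, 2 were higher (*Col1a1* and *Col1a2*) and 0 were lower, whereas 2.8% of all genes tested were higher and 2.82% were lower. At an unadjusted p below 0.05 in edgeR there were likewise 2 of the 10 genes, against 2911 (22.9%) of all 12701 genes, and DESeq2 also called 0 lower. The libraries did not overlap for 3 of the 10 genes, *Col1a1*, *Col1a2* and *Des*, whereas they did not overlap for 52.5% of all genes. The median log2 fold change was 0.13 over the 10 genes and 0.03 over all genes. Compared with the control group, 4 genes were lower in the LGK974 group (*Lrat*, *Colec11*, *Reln* and *Col1a2*) and 1 was higher (*Rgs5*), against 17.7% and 16.4% of all genes. In that comparison 5 of the 10 genes and 44.6% of all genes had an unadjusted p below 0.05 in edgeR, and the libraries did not overlap for 8 of the 10 genes and for 68.1% of all genes. The comparisons share their groups, so that their values are not independent of each other.

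In a list of other stellate cell and pericyte genes, 11 of 24 tested were lower and 5 were higher after LPS, with a median log2 fold change of −1.10, beside the 23.0% lower and 20.4% higher of all genes tested. *Tcf21*, a transcription factor of quiescent HSCs, had 21 and 28 counts in control, 0 in both endotoxemic and 5 and 20 in LGK974 livers, and was at least 5.84-fold lower in the endotoxemic group, taking 3 counts per library as the floor. *Gdf2*, which encodes BMP9, an HSC-derived ligand of endothelial cells, had 177 and 224 counts in control, 9 and 5 in endotoxemic and 45 and 148 in LGK974 livers. It fell in the endotoxemic group (log2 fold change −4.34, edgeR adjusted p = 0.000452) and was higher in LGK974 than in endotoxemic livers (log2 fold change 3.14, edgeR adjusted p = 0.0217). *Cxcl12*, a chemokine of perivascular cells, fell by 2.61 on the log2 scale (edgeR adjusted p = 4.3e-05).

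The largest rises of that list were those of *Steap4*, a metalloreductase (log2 fold change 5.72, edgeR adjusted p = 1.29e-05), *Kcnj8*, a potassium channel subunit of pericytes (3.70, adjusted p = 7.02e-05), and *Adamts1*, a secreted protease (2.45, adjusted p = 3.33e-05). Hepatocytes and other cells can express some of these genes as well. *Ngfr*, the low-affinity nerve growth factor receptor, stands on a row out of genomic order, and with its symbol reassigned by position it fell by 2.16 on the log2 scale (edgeR adjusted p = 0.014). In the LGK974 group relative to the endotoxemic group, *Gdf2* was the gene past the threshold among the 24, beside 2.8% of all genes higher and 2.82% lower. Relative to the control group, 6 were lower and 7 higher in the LGK974 group, beside 17.7% and 16.4% of all genes.

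Of 41 other matrix genes tested, 13 were lower and 5 were higher after LPS (23.0% and 20.4% of all genes). *Eln*, the elastin gene, fell by 4.01 on the log2 scale (edgeR adjusted p = 0.00168), *Col6a2*, a chain of type VI collagen, by 3.26 (adjusted p = 0.00422), and *Mgp*, matrix Gla protein, by 3.14 (adjusted p = 0.000351). *Vcan*, the proteoglycan versican, rose from 0 and 5 counts in control to 59 and 77 in endotoxemic livers (edgeR adjusted p = 0.000326), and *Tnc*, the gene of tenascin C, rose by 2.57 on the log2 scale (adjusted p = 0.014). *Tnc* did not pass the threshold without either control library or without endotoxemic library 1.

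Among the 14 other collagen genes of the list, singled out after their values were seen, 6 were lower and 2 were higher in the endotoxemic group (23.0% and 20.4% of all genes). The 2 that rose, *Col4a1* (log2 fold change 3.25, edgeR adjusted p = 5.04e-06) and *Col4a2* (1.73, adjusted p = 0.001), encode the chains of the basement membrane collagen type IV. *Col18a1*, which many hepatocytes express, fell by 2.50 on the log2 scale (adjusted p = 1.92e-05). *Col15a1* had 24 and 46 counts in control, 4 and 3 in endotoxemic and 29 and 85 in LGK974 livers, and was the collagen of these 14 that was higher in LGK974 than in endotoxemic livers (log2 fold change 3.36, edgeR adjusted p = 0.0309). In that comparison *Mgp* (2.83, adjusted p = 0.00826) and *Dpt*, the dermatopontin gene (2.20, adjusted p = 0.0191), were higher too, beside 2.8% of all genes higher and 2.82% lower. These 3 calls and that of *Gdf2* were lost when either endotoxemic library was left out (edgeR adjusted p = 0.0594 to 0.232). Those of *Gdf2* and *Col15a1* were also lost without either control library, those of *Gdf2*, *Col15a1* and *Dpt* with only the 2 groups compared in the fit (edgeR adjusted p = 0.0621, 0.0636 and 0.0504), and that of *Col15a1* without LGK974 library 2 (log2 fold change 2.50, edgeR adjusted p = 0.0743).

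**Figure D3:**
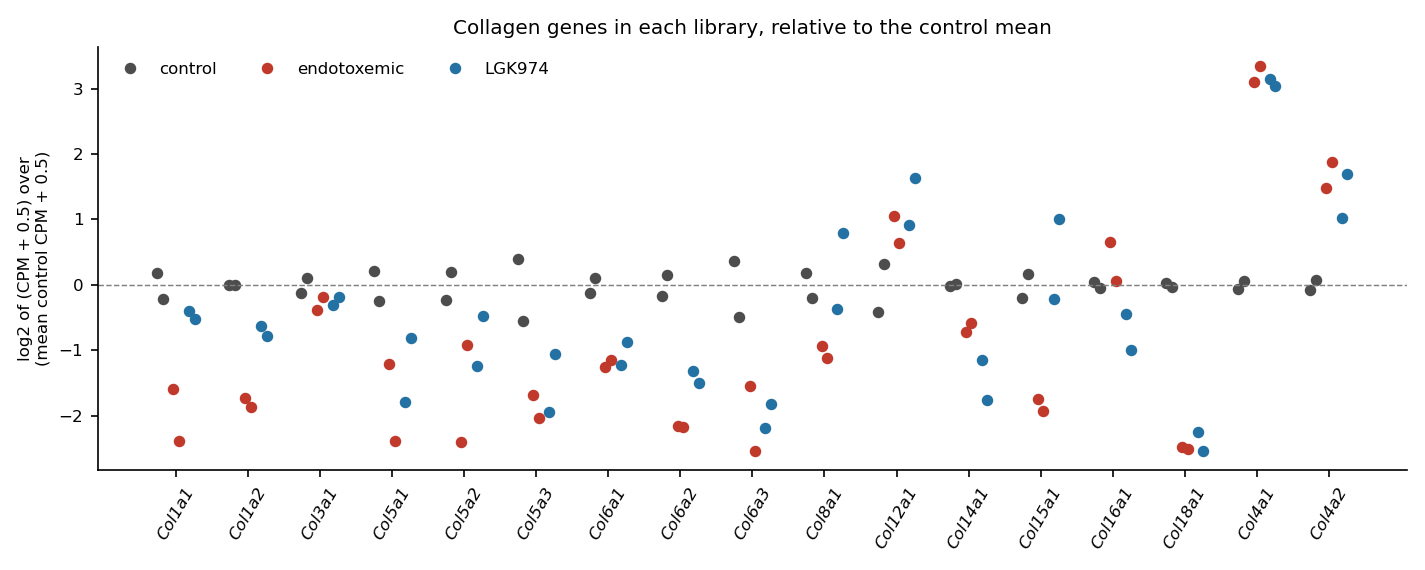
Level of each collagen gene in each library relative to its control mean, as log2 of (TMM CPM + 0.5) over (mean control TMM CPM + 0.5). Points are libraries. *Col1a1*, *Col1a2* and most other collagens sit below the control libraries in the endotoxemic group, *Col3a1* stays near them, and *Col4a1* and *Col4a2* sit above them in both groups that received LPS.

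Of 27 tested genes of collagen processing and matrix turnover, 13 rose and 4 fell after LPS (20.4% and 23.0% of all genes). *Mmp8*, the neutrophil collagenase, had 0 and 7 counts in control and 381 and 493 in endotoxemic livers (edgeR adjusted p = 1.17e-05). *Mmp13*, an interstitial collagenase, had 0 and 7 counts in control, 125 and 121 in endotoxemic and 9 and 92 in LGK974 livers (edgeR adjusted p = 0.00297 between the endotoxemic and control groups). *Mmp2*, a gelatinase of mesenchymal cells, fell by 3.08 on the log2 scale (adjusted p = 0.00974), *Timp2*, an inhibitor of such proteases, by 2.78 (adjusted p = 6.99e-05) and *Mmp19* by 2.61 (adjusted p = 0.000115). The call of *Mmp2* was lost without control library 1 or either endotoxemic library (edgeR adjusted p = 0.0515 to 0.0982). *Timp1*, the protease inhibitor classically linked to HSC activation, stands on a row out of order. It had 0 and 3 counts in control under its own symbol and, by position, 399 and 495 in endotoxemic and 336 and 451 in LGK974 livers. In the LGK974 group, *Tgm2*, a transglutaminase that cross-links matrix proteins, was lower than in the endotoxemic group (log2 fold change −0.99, edgeR adjusted p = 0.0278), a call lost without any 1 control or endotoxemic library and with only those 2 groups fitted (edgeR adjusted p = 0.0774).

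Of 22 genes of TGF-β and PDGF signaling, the main pathways of HSC activation and proliferation, 5 were lower and 4 higher in the endotoxemic group, close to the 23.0% and 20.4% of all genes tested. *Pdgfc*, a PDGF ligand, rose by 2.92 on the log2 scale (edgeR adjusted p = 0.000418). *Itgb5*, an integrin chain, fell by 2.31 on the log2 scale (adjusted p = 0.00132) and *Tgfbi*, a matrix protein induced by TGF-β, by 2.18 (adjusted p = 0.000706). *Pdgfrb*, the PDGF receptor of HSCs, counted above with the stellate cell and pericyte genes and not among these 22, fell by 2.42 on the log2 scale (adjusted p = 0.013). *Pdgfa* was lower in LGK974 than in endotoxemic livers (log2 fold change −1.34, adjusted p = 0.0371). The call of *Pdgfrb* was lost without control library 1 or either endotoxemic library (edgeR adjusted p = 0.0678 to 0.0941). That of *Pdgfa* was lost with only these 2 groups fitted and without any 1 control or endotoxemic library (edgeR adjusted p = 0.0716 to 0.224).

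Partners of the secreted factors were tested next. Of all genes, 23.0% were lower and 20.4% higher after LPS. Of 7 tested genes of HGF activation and reception, 5 were lower and 0 were higher in the endotoxemic group by edgeR. *Met*, the HGF receptor, fell by 2.40 on the log2 scale (edgeR adjusted p = 0.000149), *Hpn*, a protease that activates HGF, by 2.08 (adjusted p = 0.000288) and *Hgfac*, the HGF activator, by 1.49 (adjusted p = 0.000225). *Vldlr*, a reelin receptor and the gene of its list with enough reads to be tested, had 210 and 374 counts in control, 11 and 10 in endotoxemic and 11 and 27 in LGK974 livers (log2 fold change −4.27 in the endotoxemic group, adjusted p = 6.94e-05). Beside *Colec11*, 5 of 8 genes of collectins and lectin complement were lower and 1 was higher. *Colec12* fell by 2.97 on the log2 scale (adjusted p = 0.00242), *Colec10*, whose protein pairs with collectin-11, by 1.68 (adjusted p = 0.00794), whereas *Mbl1*, a mannose-binding lectin, rose by 1.22 (adjusted p = 0.000614). The call of *Colec10* was lost without control library 2 or endotoxemic library 1.

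Beside *Lrat*, 12 of 20 tested genes of vitamin A handling were lower and 1 was higher in the endotoxemic group (23.0% and 20.4% of all genes). *Cyp26a1*, which degrades retinoic acid, had 187 and 309 counts in control, 2 and 3 in endotoxemic and 0 and 2 in LGK974 livers (edgeR adjusted p = 3.8e-05 between the endotoxemic and control groups). *Cyp26b1* had 505 and 662 counts in control under its own symbol and, by position, 3 and 7 in endotoxemic livers. *Dhrs3*, a retinaldehyde reductase, fell by 2.98 on the log2 scale (adjusted p = 2.8e-05) and *Adh1*, a retinol-oxidizing dehydrogenase abundant in hepatocytes, by 2.90 (adjusted p = 7.72e-06). *Aldh1a3*, which makes retinoic acid, rose from 1 and 8 counts in control to 35 and 33 in endotoxemic livers (adjusted p = 0.00373). In the LGK974 group 14 of the 20 genes were lower and 1 was higher than in the control group (17.7% and 16.4% of all genes). Between the LGK974 and endotoxemic groups 0 passed the threshold in edgeR, beside 2.8% of all genes higher and 2.82% lower.

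**Figure D4:**
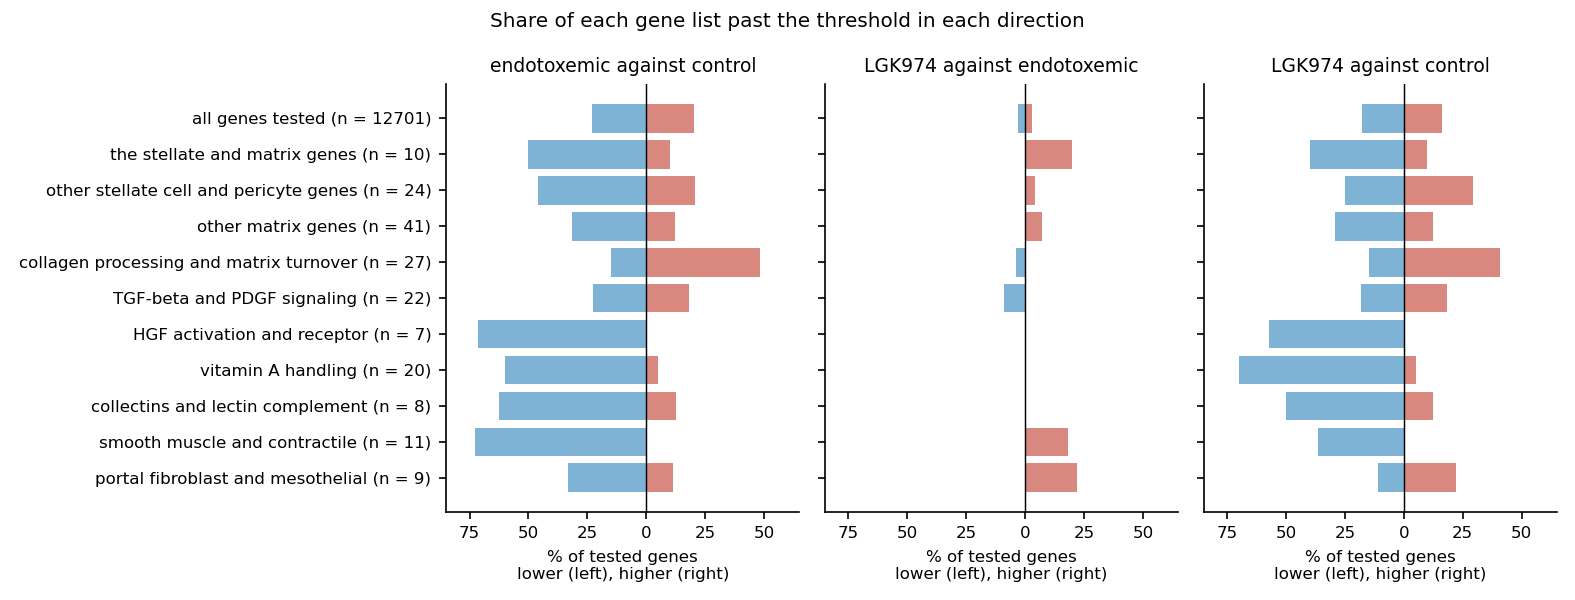
Share of the tested genes of each list that were lower (left) or higher (right) at an edgeR adjusted p below 0.05, with all genes tested in the top row. In the endotoxemic group, vitamin A handling, HGF activation, collectins and smooth muscle genes extend mostly to the left, and collagen processing and matrix turnover extends to the right.

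Markers of neighbouring mesenchymal cells that share genes with HSCs were counted in the same comparisons, and these counts stand beside 23.0% of all genes lower and 20.4% higher after LPS. Of 11 tested smooth muscle and contractile genes, 8 fell after LPS and 0 rose by edgeR, and their summed level was 708 to 713 TMM CPM in control, 285 to 287 in endotoxemic and 370 to 483 in LGK974 livers, with *Myocd* at 0 throughout. Without *Cald1*, the gene with most reads, the sum was 197 to 208, 87.1 to 92.3 and 94.96 to 118 TMM CPM, respectively. *Acta2*, the smooth muscle actin that also marks activated HSCs, had 55 and 102 counts in control, 10 and 8 in endotoxemic and 113 and 57 in LGK974 livers. It was lower in endotoxemic than in control livers (log2 fold change −2.59, edgeR adjusted p = 0.00428) and higher in LGK974 than in endotoxemic livers (log2 fold change 2.66, edgeR adjusted p = 0.0248), the second call being lost without any 1 control or endotoxemic library and with only those 2 groups fitted (edgeR adjusted p = 0.061). Of 9 portal fibroblast and mesothelial genes tested, 3 were lower and 1 was higher in the endotoxemic group, near those shares. Their median log2 fold change was −2.03. The list summed to 52.7 to 55.7 TMM CPM in control, 113 to 151 in endotoxemic and 200 to 261 in LGK974 livers. Without *Gas6*, its gene with the most reads, the sum was 24.1 to 25.8, 5.56 to 7.89 and 24.2 to 25.8 TMM CPM, respectively. In LGK974 against endotoxemic livers, 2 of the 9 were higher, *Cd34* (log2 fold change 2.85, edgeR adjusted p = 0.0149) and *Dpt*. Of all genes, 2.8% were higher and 2.82% lower in that comparison. The call of *Cd34* was lost without endotoxemic library 1 or 2 (edgeR adjusted p = 0.113 and 0.159). The part of these cells in the results for the 10 genes was not tested.

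Markers of other liver cells were counted in the same way, beside the same 23.0% and 20.4% of all genes, and their part was not tested either. All 6 neutrophil genes tested were higher in the endotoxemic group, with a summed level of 1.76 to 2.35 TMM CPM in control, 98.4 to 111 in endotoxemic and 66.0 to 72.0 in LGK974 livers. Of 11 sinusoidal endothelial genes, 6 were lower and 2 were higher, and their summed level was 383 to 399, 508 to 509 and 528 to 651 TMM CPM in the control, endotoxemic and LGK974 groups, respectively. Without *Lyve1*, a hyaluronan receptor and the gene with the most reads of that list, the sum was 333 to 363, 149 to 172 and 128 to 153 TMM CPM. Of 7 hepatocyte genes, 6 were lower and 1 was higher, and of 11 Kupffer cell and monocyte genes, 4 were lower and 2 were higher. The summed level of the Kupffer cell and monocyte genes was 259 to 267 TMM CPM in control, 257 to 273 in endotoxemic and 161 to 203 in LGK974 livers. Without *Marco*, a scavenger receptor and the gene with the most reads of that list, it was 252 to 261, 160 to 199 and 99.9 to 106 TMM CPM, respectively. No hepatocyte, endothelial, Kupffer cell or neutrophil gene counted here was at 0 in every library.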

How the data were processed

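The authors prepared libraries from liver RNA with the Lexogen QuantSeq 3′-end kit and deposited whole-number read counts per gene symbol, without normalization. The submitters' processing notes name Bowtie2, edgeR and mm10, and versions are not given in the sources used here. Libraries of a group with the same count on every row were counted once, which left 6 of 8 libraries.

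The analysis used edgeR 4.0.16 in R 4.3.3, where counts were filtered by filterByExpr, normalized by TMM and fitted with 1 quasi-likelihood model of the 3 groups (12701 genes, common biological coefficient of variation 0.239), and p-values were adjusted by Benjamini-Hochberg over all genes tested, at 0.05. At the filter's level of 0.812 CPM, all 10 genes passed, *Des* through 3 libraries, *Hgf* through 4, *Lrat* through 5 and the others through 6. SEs were derived from the F statistic. The main fit and the shares of all genes used the symbols as deposited, with the rows out of order included. The fit was tested on simulated data. Intervals and the 3-count floor of bounds cover counting error or the spread between libraries, not separate mice.

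The order of rows was compared with RefSeq positions on GRCm38, and gene coordinates are from GENCODE on GRCm38. For 445 of the 579 rows out of order a gene could be matched by position, and its endotoxemic and LGK974 counts were then taken from the row at its place, while control counts kept the symbol. Across these genes, log2(mean count + 1) of the control and endotoxemic groups correlated with Pearson's r = 0.0777 as deposited and 0.806 after this step. Promoters were found in RefSeq for 8 of the 10 genes, and not for *Dcn* or *Col1a1*.

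The 10 genes and all lists were chosen with earlier results of these data known. The 3 largest rises and falls of a list past the threshold were named, except for items not reported here, and *Pdgfrb*, *Col4a2* and *Col18a1* were added after their values were seen. Alternatives were DESeq2 1.42.0, RLE factors, other filters, the identical libraries as separate samples, a replicate block, a fit of only 2 groups, other row symbols and leaving out each library.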

Additional observations from a re-analysis of the deposited data

How the results depend on the processing

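The falls of *Lrat*, *Colec11*, *Col1a1* and *Col1a2* in the endotoxemic group passed the threshold under each alternative that kept the gene, with a highest edgeR or DESeq2 adjusted p of 0.031, 0.0119, 0.019 and 0.00516, respectively, and so did those of *Lrat*, *Colec11* and *Reln* in the LGK974 group against the control group (0.0148, 0.00381 and 0.046). Over the 10 genes, the number higher in the endotoxemic group was 2 instead of 1 with the identical libraries as separate samples, with no filter on low counts and with only the 2 groups compared, and it ranged from 0 to 2 when a library was left out, while the number lower ranged from 4 to 6. Between the LGK974 and endotoxemic groups the number higher was 0 with only the 2 groups compared and 0 to 2 when a library was left out, and the number lower was 0 to 1. Between the LGK974 and control groups the number higher was 2 with the identical libraries as separate samples and 0 to 2 when a library was left out, and the number lower was 3 to 4.

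Of all genes, 356 were higher and 358 lower in LGK974 than in endotoxemic livers, and these numbers became 1711 and 1548 with the identical libraries as separate samples, 592 and 622 in DESeq2, 881 and 824 with no filter, and 107 and 162 with only the 2 groups compared, and ranged from 23 to 1175 and from 26 to 1067 when a library was left out. With a library left out, endotoxemic livers had 1517 to 3196 genes higher and 1801 to 3523 lower than control livers, and LGK974 livers had 1041 to 2608 higher and 1331 to 2761 lower than control livers. The cause of these shifts was not tested.

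Directions turned when a library was left out for some values that had not passed the threshold. In LGK974 against endotoxemic livers, the log2 fold change of *Lrat* ranged from −1.69 to 0.22 (0.0099 without endotoxemic library 1 and 0.22 without LGK974 library 1), that of *Hgf* from −1.41 without LGK974 library 2 to 1.81 (−0.072 without endotoxemic library 1), and that of *Col3a1* from −0.084 to 0.14 (−0.084 without endotoxemic library 1 and −0.027 without LGK974 library 2). In LGK974 against control livers, *Hgf* ranged from −2.26 to 0.55 and *Des* from −1.54 to 0.098, both highest without LGK974 library 1. *Dcn* passed the threshold in that comparison without LGK974 library 1 (edgeR adjusted p = 0.0208) and with the identical libraries as separate samples (0.0312).

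The labels do not say that replicate numbers pair the libraries, and deviations of libraries with the same number correlated with r = 0.214, 0.064 and −0.018 in the 3 comparisons. The replicate block gave 2577 genes higher and 2908 lower in endotoxemic than in control livers, and it changed none of the calls of the 10 genes. With reassigned symbols or without the rows out of order these calls were also unchanged. With at least 10 counts in every library, *Des*, *Hgf* and *Lrat* were not tested.

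The limits are few libraries per group, reads in single digits for *Des*, *Hgf* and *Lrat* in some libraries, and LGK974 libraries that differ from the others in *Xist* and Y-linked genes.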
